A study of Homo sapiens with 18 samples.

Results

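The genes described here encode the chains of integrins and laminins. They were 33 listed genes: 16 integrin alpha chains, 8 integrin beta chains and 9 laminin chains, the last made up of 5 alpha, 3 beta and 1 gamma chain. A gene entered where a probe set (a group of short probes against one transcript) was annotated to it alone, and where a gene had several, the one with the highest average signal stood for it. This gave 31 measured members among 19775 genes tested. The 4 probe sets of ITGB6 also carried a second gene, so ITGB6 was not used, and LAMA3 was not analysed here.

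Integrins are pairs of an alpha and a beta chain that span the cell membrane and hold cells to the matrix around them. The alpha chain largely sets the ligand, such as collagen, laminin or proteins with an RGD motif, and the tail of the beta chain binds talin and kindlin and through them the actin cytoskeleton. Laminins are trimers of an alpha, a beta and a gamma chain and form the sheet of the basement membrane to which several integrins bind. In liver carcinoma cells these chains are known for their part in attachment, migration and invasion.

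The 18 expression arrays came from 3 human cell lines of hepatocellular carcinoma, labelled Hep3B, SNU449 and PLC (PLC/PRF/5 in the series design). Each line was grown in RPMI medium and transfected with a lipid reagent, with a non-targeting control siRNA in 3 biological replicates and with siRNA against ATAD2, a chromatin-associated ATPase with a bromodomain, in 3 more. The labels call the treated samples knockouts, while the design and the treatment text describe siRNA, so they are called knockdowns here. The sources used here give neither the time after transfection nor the siRNA sequences. Each cell type is represented by 1 line, and all values are levels in bulk RNA, in which fewer cells with a transcript and less of it per cell cannot be told apart. All levels are log2 signals after quantile normalization over the 18 arrays, and a difference of 1 on this scale is a doubling of the signal. For dim genes, whose probes read close to background, a difference comes out smaller than the true change, and no detection calls were used. The number of arrays, 3 in a group, limits the precision, and an exact permutation test of 3 against 3 arrays cannot give a p under 0.1.

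ATAD2 was lower in every knockdown array than in every control array of its line. Its mean fell by 3.80 ± 0.16 (SE) in the arrays labelled Hep3B, by 2.39 ± 0.16 in those labelled SNU449 and by 2.62 ± 0.16 in PLC, 13.9-fold, 5.23-fold and 6.14-fold, with adjusted p = 1.41e-10, 6.15e-07 and 3.04e-07 by limma with Benjamini-Hochberg adjustment over all genes. The identity of the lines was less clear. Hep3B is usually described as a line that makes albumin and has lost RB1, but in the control arrays labelled Hep3B the mean of ALB was 3.03 and that of RB1 was 9.47, against 13.76 and 4.44 in those labelled SNU449 and 10.61 and 8.57 in PLC. Over 8 measured hepatocyte markers the mean level was 4.80 to 5.00 in the Hep3B-labelled control arrays, 12.01 to 12.02 in the SNU449-labelled and 9.20 to 9.25 in the PLC control arrays. Over 10 mesenchymal markers it was 8.39 to 8.44, 5.32 to 5.37 and 6.32 to 6.37 in the same order. The names Hep3B and SNU449 below therefore stand for the arrays labelled so. Contrasts within a label compare arrays of the same label, and a direction between Hep3B and SNU449 rests on the labels. Of 7 endothelial markers 6 lay in the lower 50% of all genes in every group, and the mean over 5 stellate and smooth muscle markers was 5.56 to 5.58 in the Hep3B, 4.63 to 4.77 in the SNU449 and 4.71 to 4.80 in the PLC control arrays. The arrays of a group correlated at 0.9937 to 0.9979. The 3′ to 5′ signal difference of the actin and GAPDH control probe sets was 1.15 and 1.09 in PLC knockdown replicates 1 and 3 and between 0.30 and 0.79 in the other arrays.

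The main question was which integrin and laminin chains changed with ATAD2 knockdown. In Hep3B, 5 of 31 members passed an adjusted p of 0.05, against 16.4% of all genes tested, so their share of 16.1% was near that of all genes. The collagen receptor chain ITGA2 and the beta chain ITGB5 rose. The laminin receptor chains ITGA3 and ITGB4 and the laminin chain LAMA5 fell. The control and knockdown arrays of these 5 did not overlap. Those of ITGA1, ITGAV, ITGAE, ITGB1, ITGB3, LAMB1 and LAMB2, which were not called, did not overlap either. The share of such genes over all genes is not given here. The median change of the 31 members was -0.04, against -0.02 over all genes, with 14 members above 0 and 17 below. ITGA2 and ITGB5 were the 2 called higher, where 8.68% of all genes were, and ITGA3, ITGB4 and LAMA5 the 3 called lower, where 7.74% were. The share of higher calls over all genes was 52.9%, but 64.2% with the values as deposited and 75.1% with arrays centred on their medians. The mean over 5 biliary and epithelial markers was 6.25 to 6.37 in the Hep3B control arrays and 6.04 to 6.09 in the knockdown arrays, and that over the mesenchymal markers went from 8.39 to 8.44 up to 8.48 to 8.53. That over the stellate and smooth muscle markers went from 5.56 to 5.58 up to 5.65 to 5.70. In these lists 1 of 5 was called lower, 1 of 10 higher and 1 of 5 higher. Their median changes were 0.01, -0.02 and 0.06, and the largest single changes were -1.08, 0.83 and 0.69. Of the biliary and epithelial markers 3 of 5 lay above 0, and of the mesenchymal 6 of 10 lay below. Of the stellate and smooth muscle markers 3 of 5 lay above. The part of these markers in the changes was not tested.

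ITGA2 is the alpha chain of a major collagen receptor of epithelial cells and platelets. Its log2 signal was 7.69, 7.41 and 7.73 in the Hep3B control arrays and 8.28, 8.50 and 8.29 in the knockdown arrays. Every knockdown array lay above every control array. The rise was 0.75 ± 0.10 (SE, n = 3 and 3), or 1.68-fold, with adjusted p = 8.3e-05 by limma. A second probe set of ITGA2 changed by 0.18 ± 0.08 and did not pass the test (adjusted p = 0.173, limma over all probe sets with 1 gene), and the mean of both probe sets rose by 0.46.

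Among the other collagen receptor chains, none was called in Hep3B. ITGA1 moved by 0.25 ± 0.11 (adjusted p = 0.149, limma), with controls at 5.54, 5.62 and 5.61 and knockdown arrays at 5.84, 5.92 and 5.76. The groups did not overlap, but the difference did not pass over all genes. One of its 2 other probe sets rose by 0.50 ± 0.13 (adjusted p = 0.0193, limma over all probe sets).

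ITGB5 pairs with ITGAV in a receptor for vitronectin, an RGD protein of plasma and matrix. It was at 9.93, 9.94 and 9.90 in the Hep3B control arrays and at 10.30, 10.20 and 10.21 in the knockdown arrays. Every knockdown array lay above every control array. The rise was 0.31 ± 0.06, or 1.24-fold (adjusted p = 0.00117, limma). Its 3 other probe sets changed by -0.02 to 0.26 and none was called, and the mean of all its probe sets rose by 0.19 (adjusted p = 0.0339, limma). Its partner ITGAV moved by -0.11 ± 0.06 and was not called (adjusted p = 0.214, limma), though its groups did not overlap.

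ITGB4 is the laminin receptor chain of hemidesmosomes, the junctions that tie epithelial cells to the basement membrane, and pairs with ITGA6. In the Hep3B control arrays it was at 9.06, 8.99 and 9.12, and in the knockdown arrays at 8.42, 8.43 and 8.26. All 3 knockdown arrays lay below all 3 control arrays. It fell by 0.69 ± 0.08 on the log2 scale, 1.61-fold (adjusted p = 2.39e-05, limma). The 4 other probe sets of ITGB4 moved by -0.43 to -0.03 and none was called, and the mean of all 5 fell by 0.27. ITGA6, its partner chain, moved by -0.06 ± 0.09 (adjusted p = 0.761, limma).

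ITGA3 pairs with ITGB1 in another laminin receptor. It was at 8.81, 8.79 and 8.91 in the Hep3B control arrays and at 8.38, 8.51 and 8.37 after knockdown. The arrays of the groups did not overlap. It fell by 0.42 ± 0.07, 1.33-fold (adjusted p = 0.000437, limma), on its 1 probe set. ITGB1, the beta chain that most of these alpha chains share, moved by 0.10 ± 0.05 and was not called (adjusted p = 0.248, limma). The groups of ITGB1 did not overlap either.

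LAMA5 encodes an alpha chain of the laminins of mature epithelial and endothelial basement membranes. Its signal was 9.66, 9.73 and 9.64 in the Hep3B control arrays and 9.35, 9.39 and 9.29 in the knockdown arrays. Every knockdown array was below every control array. It fell by 0.33 ± 0.07, 1.26-fold (adjusted p = 0.00283, limma), on its 1 probe set. With the arrays centred on their medians in place of quantile normalization the fall was 0.22 and was no longer called (adjusted p = 0.0559, limma). The other 7 measured laminin chains were not called in Hep3B.

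**Figure D1:**
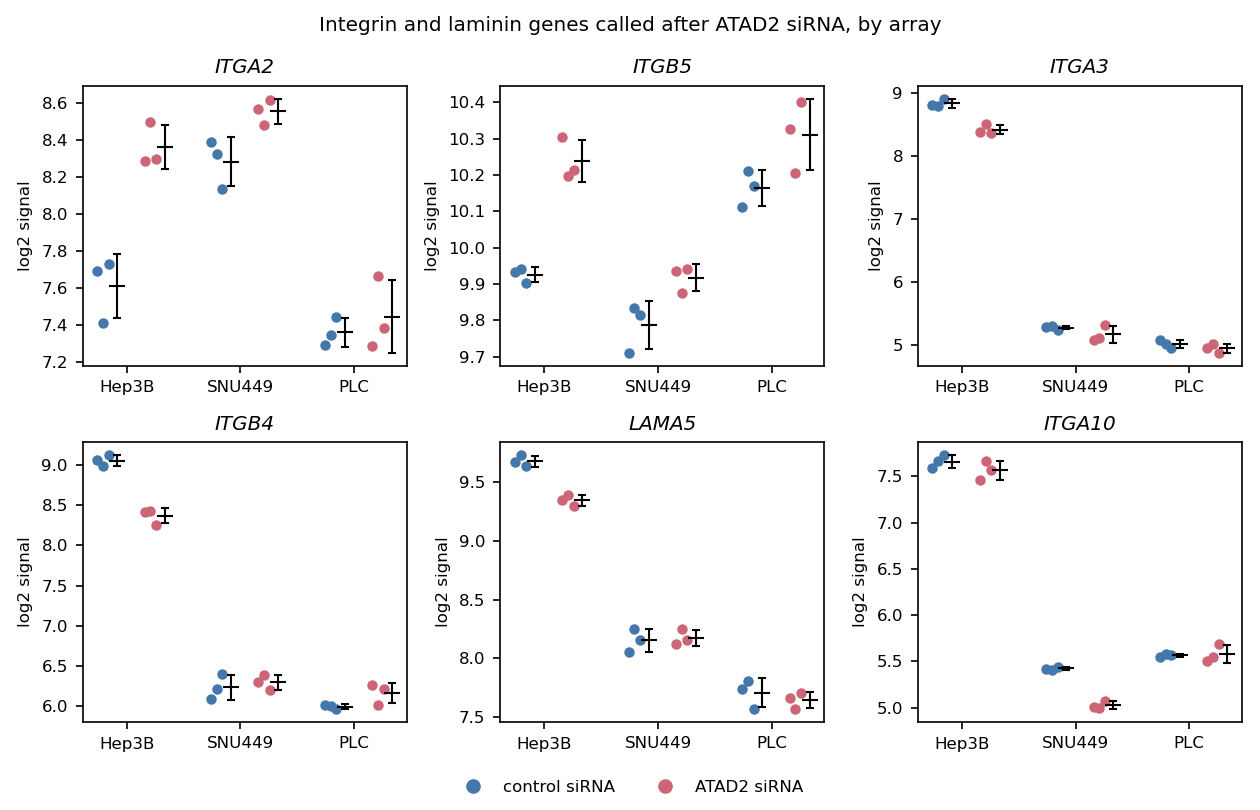
Log2 signal (vertical axis) of the 6 members called in at least 1 knockdown comparison, for each array of the 3 lines, with control siRNA in blue and ATAD2 siRNA in red. Black bars are group means ± SD (n = 3). In Hep3B the 2 groups of ITGA2, ITGB5, ITGA3, ITGB4 and LAMA5 do not overlap, and for ITGA10 it is the SNU449 groups that stand apart.

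Upstream sequences are shown for 4 of the 6 called genes. The promoter collection used here had no entry for ITGA3 and ITGB4. Of the 4 shown, ITGA2 and ITGB5 rose in Hep3B, LAMA5 fell in the same arrays, and ITGA10, described next, fell in SNU449. Each is the 250 bases before the annotated start, 5′ to 3′ on the strand of the gene, from RefSeq on GRCh38.p14. Capitals mark matches to the GC box GGGCGG, the core that SP1-family factors bind, on either strand. For ITGB5, which has 3 listed starts, the most upstream is shown.
ITGA2, chr5:52989102-52989351, plus strand: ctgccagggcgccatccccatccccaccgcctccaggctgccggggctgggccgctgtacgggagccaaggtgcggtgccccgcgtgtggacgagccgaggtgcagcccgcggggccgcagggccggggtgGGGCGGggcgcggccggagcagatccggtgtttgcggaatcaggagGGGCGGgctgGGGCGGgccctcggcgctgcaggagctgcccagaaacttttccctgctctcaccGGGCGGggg
ITGB5, chr3:124901419-124901668, minus strand: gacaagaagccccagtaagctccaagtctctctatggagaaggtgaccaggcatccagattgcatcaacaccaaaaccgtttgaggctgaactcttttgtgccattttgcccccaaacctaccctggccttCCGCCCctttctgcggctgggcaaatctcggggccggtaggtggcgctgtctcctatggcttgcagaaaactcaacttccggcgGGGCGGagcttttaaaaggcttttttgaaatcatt
LAMA5, chr20:62367313-62367562, minus strand: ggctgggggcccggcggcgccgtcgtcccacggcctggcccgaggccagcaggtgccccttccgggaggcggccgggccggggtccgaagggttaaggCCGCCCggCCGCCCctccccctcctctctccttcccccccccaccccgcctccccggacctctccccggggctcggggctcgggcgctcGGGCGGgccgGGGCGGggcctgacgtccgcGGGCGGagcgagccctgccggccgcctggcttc
ITGA10, chr1:145910051-145910300, minus strand: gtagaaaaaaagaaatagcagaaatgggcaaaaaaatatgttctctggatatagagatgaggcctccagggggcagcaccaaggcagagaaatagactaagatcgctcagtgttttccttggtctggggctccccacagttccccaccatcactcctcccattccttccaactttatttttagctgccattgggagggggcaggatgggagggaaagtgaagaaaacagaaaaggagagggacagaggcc
ITGA2 held 4 matches, LAMA5 held 5, ITGB5 held 2 and ITGA10 none. The GC content was 76.4% for ITGA2, 82.8% for LAMA5, 52.8% for ITGB5 and 48.4% for ITGA10. Of 35116 promoters of this length 42.6% held a GC box, and of 21 members with an entry 11 did. The promoters count every listed start, while each member counts once, at its most upstream start. None of the 4 printed sequences held an AP-1 site (TGANTCA), a MYC E-box (CACGTG), an E2F consensus with a free centre (TTTNNCGC) or a TATA box (TATAAA), searched on both strands, which 6.57%, 6.34%, 5.92% and 10.7% of all promoters held. GC boxes thus stood before ITGA2 and ITGB5, which rose, and before LAMA5, the only gene called lower in Hep3B that had a sequence. A match is a description of letters, not a bound site.

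In SNU449, 1 of 31 members was called, against 0.258% of all genes, of which 0.147% were called higher and 0.111% lower. This was ITGA10, the alpha chain of a collagen receptor of cartilage. It was at 5.42, 5.41 and 5.44 in the control arrays and at 5.01, 5.00 and 5.08 in the knockdown arrays. The groups did not overlap, and it fell by 0.40 ± 0.06, 1.32-fold (adjusted p = 0.0115, limma), on its 1 probe set. Its signal was in the lower part of all genes there, at the 41.4 percentile in control and 35.2 in knockdown arrays. The call was lost without SNU449 control replicate 2 (adjusted p = 0.0828), without SNU449 control replicate 3 (adjusted p = 0.0518) and without SNU449 knockdown replicate 2 (adjusted p = 0.0688, limma), while the change lay between -0.42 and -0.38 with each of the 18 arrays left out in turn. The 30 other members moved by -0.35 (LAMC3, adjusted p = 0.0739) to 0.39 (ITGA1, adjusted p = 0.169, limma), and 7 of 31 members had an unadjusted p under 0.05. Of the calls over all genes in SNU449 56.9% were higher, 70.6% with the values as deposited and 85.2% with arrays centred on their medians. The mean over the biliary and epithelial markers was 9.48 to 9.55 in the SNU449 control and 9.60 to 9.62 in the knockdown arrays. Of these 5 markers 0 were called by limma, 1 had an unadjusted p under 0.05, and 3 lay above 0. Their median change was 8e-04 with the largest at 0.43, and their part was not tested. LAMC3, a gamma chain of laminin, was at 5.99, 5.86 and 6.08 in the control arrays and at 5.69, 5.64 and 5.54 in the knockdown arrays.

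In PLC, 0 of 31 members were called by limma, against 4.57% of all genes, and 4 of them had an unadjusted p under 0.05. Of all genes 2.34% were called higher and 2.24% lower. The members moved by -0.12 (ITGB7) to 0.41 (ITGA4), with a median of 0.01, against 0.01 over all genes. A second probe set of ITGA6 did fall, by 0.47 ± 0.10 (adjusted p = 0.0259, limma over all probe sets), while the one used moved by -0.11. In the same arrays 5 of 8 hepatocyte markers were called lower and their mean went from 9.20 to 9.25 in control down to 8.77 to 8.87 in knockdown arrays. Of 5 biliary and epithelial markers 1 was called lower, with means of 6.45 to 6.67 and 6.20 to 6.41. The part of these markers in the members' values was not tested. ITGA4, the alpha chain of a receptor for fibronectin and VCAM1 best known on leukocytes, was at 3.18, 3.82 and 3.70 in the control arrays and at 3.72, 4.33 and 3.88 in the knockdown arrays. The groups overlapped, and its change of 0.41 ± 0.14 did not pass (adjusted p = 0.109, limma). Without PLC knockdown replicates 1 and 3, the arrays with the high 3′ to 5′ difference, the change was 0.77 and was called (adjusted p = 0.0139, limma), which rests on 1 knockdown array assumed to vary like the other groups. The change of ITGA4 was smaller elsewhere: 0.08 with the mean of its probe sets, 0.22 with the values as deposited, 0.20 with arrays centred on their medians, 0.22 without PLC control replicate 1 and 0.23 without PLC knockdown replicate 2, none of them called. ITGB1 was at 12.72, 12.73 and 12.74 in the control arrays and at 12.93, 12.82 and 12.93 in the knockdown arrays, so that the groups did not overlap. Its change of 0.16 ± 0.05 did not pass (adjusted p = 0.0806, limma). The 7 probe sets of ITGB1 moved by -0.71 to 0.47 with none called, and their mean by -0.12, against the direction of the one used. Without PLC knockdown replicate 2, ITGB1 (0.20, adjusted p = 0.0161) and ITGB5 (0.20, adjusted p = 0.0271, limma) were called, so the count of 0 became 2. That leaves the knockdown arrays with the high 3′ to 5′ difference; without those arrays the changes were 0.09 and 0.04, with the 3′ to 5′ covariate 0.12 and 0.07, and none of these was called. Of the calls over all genes in PLC 51.1% were higher, 35.1% with the values as deposited and 23.1% with arrays centred on their medians.

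**Figure D2:**
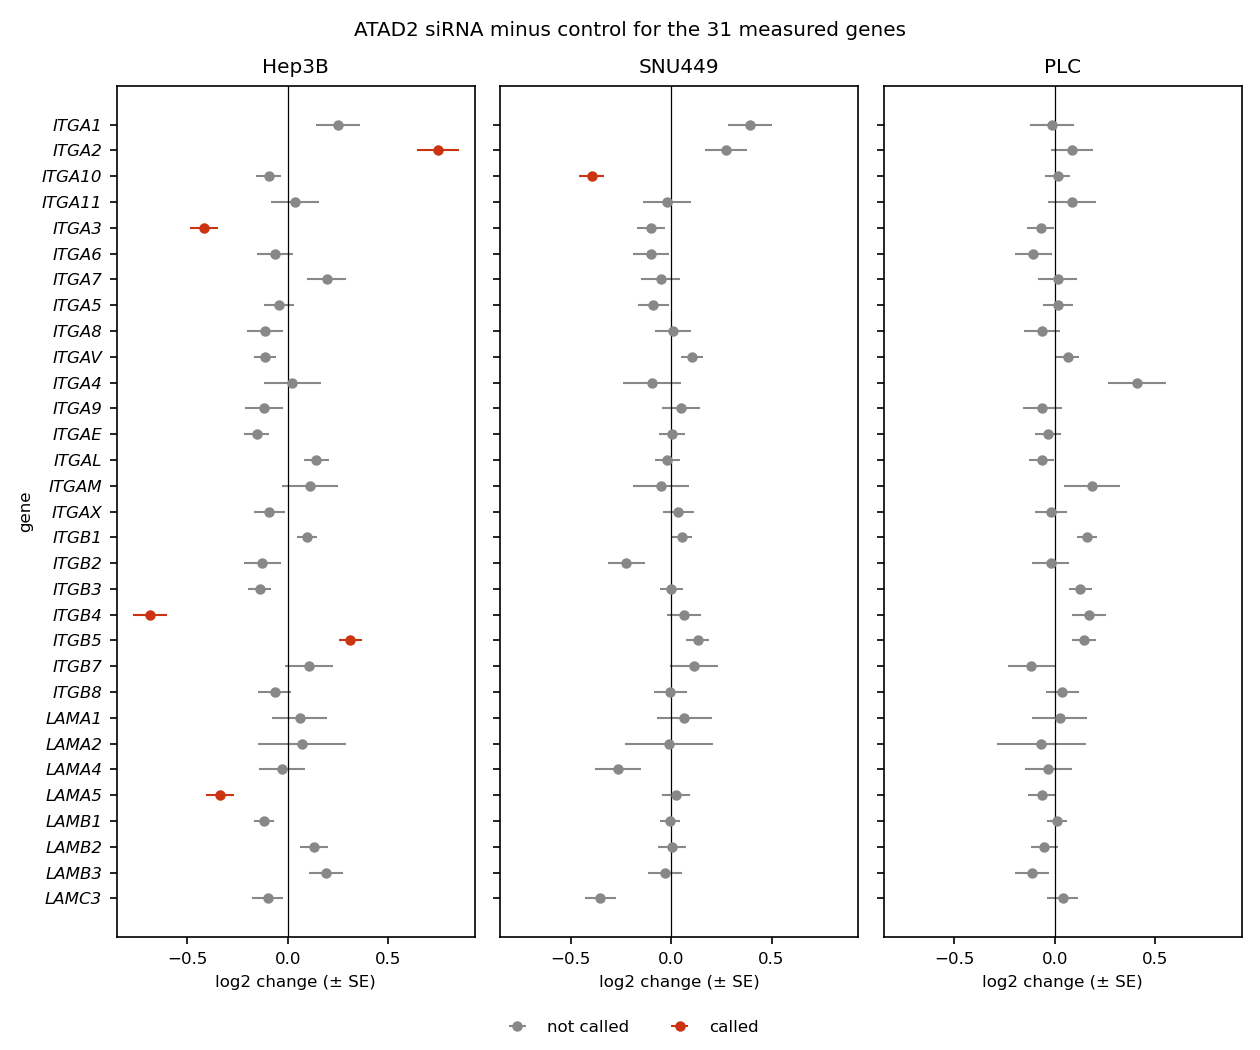
Log2 change with ATAD2 siRNA against control (horizontal axis, ± SE of the limma fit) for the 31 measured members in Hep3B, SNU449 and PLC, with members called at an adjusted p of 0.05 in red. The 5 calls in Hep3B run from -0.69 to 0.75, the SNU449 call is ITGA10 at -0.40, and PLC has none.

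A call in one line and none in another does not show that the lines differ, so the difference between the changes was tested itself. By limma's F test over the 3 lines, 3 of 31 members differed, against 9.18% of all genes: ITGB4 (adjusted p = 0.000372), ITGA10 (adjusted p = 0.0155) and ITGA2 (adjusted p = 0.0196). The change of ITGB4 was 0.75 ± 0.12 higher in SNU449 than in Hep3B (adjusted p = 0.00103) and 0.86 ± 0.12 higher in PLC than in Hep3B (adjusted p = 0.000313, limma). In SNU449 ITGB4 had been at 6.09, 6.21 and 6.40 in control and 6.31, 6.38 and 6.20 in knockdown arrays, and in PLC at 5.96 to 6.02 in control and 6.26, 6.02 and 6.21 in knockdown arrays. Its level before knockdown was thus already lower in the lines where it did not fall, and a link between level and change was not tested. With the mean of all its probe sets ITGB4 no longer passed the F test (adjusted p = 0.0806, limma).

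The change of ITGA2 in PLC differed from that in Hep3B by -0.66 ± 0.15 (adjusted p = 0.0094, limma). In PLC it was at 7.29, 7.34 and 7.44 in control and 7.29, 7.66 and 7.38 in knockdown arrays, which overlapped. In SNU449 it was at 8.39, 8.32 and 8.13 in control and 8.56, 8.48 and 8.62 in knockdown arrays, and its change of 0.27 ± 0.10 there (adjusted p = 0.337) was not shown to differ from that in Hep3B (adjusted p = 0.0695, limma). Without Hep3B control replicate 2, the lowest of the control arrays, ITGA2 did not pass the F test (adjusted p = 0.0592, limma), nor did it with a replicate block (adjusted p = 0.071, limma). Between pairs of lines, 2 members differed between SNU449 and Hep3B, ITGB4 and LAMA5 (0.36 ± 0.10, adjusted p = 0.0408), both with a change further up in SNU449, against 6.14% of all genes (2.93% in that direction and 3.21% in the other). Between PLC and Hep3B 4 differed, ITGA2, ITGA3 (0.34 ± 0.10, adjusted p = 0.0357), ITGB3 (0.27 ± 0.08, adjusted p = 0.0492, limma) and ITGB4, against 9.7% (4.76% with a change further up in PLC and 4.94% further down). ITGA2 was the 1 further down. By the F test LAMA5, ITGA3 and ITGB3 did not pass (adjusted p = 0.0576, 0.051 and 0.104, limma). Between SNU449 and PLC 0 of 31 differed by limma, against 0.202% (0.106% up and 0.0961% down), and 4 had an unadjusted p under 0.05. The count by the F test was 7 without PLC knockdown replicate 2 and 5 without SNU449 control replicate 2, among arrays left out singly. The share of all genes called without those arrays is not given here.

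**Figure D3:**
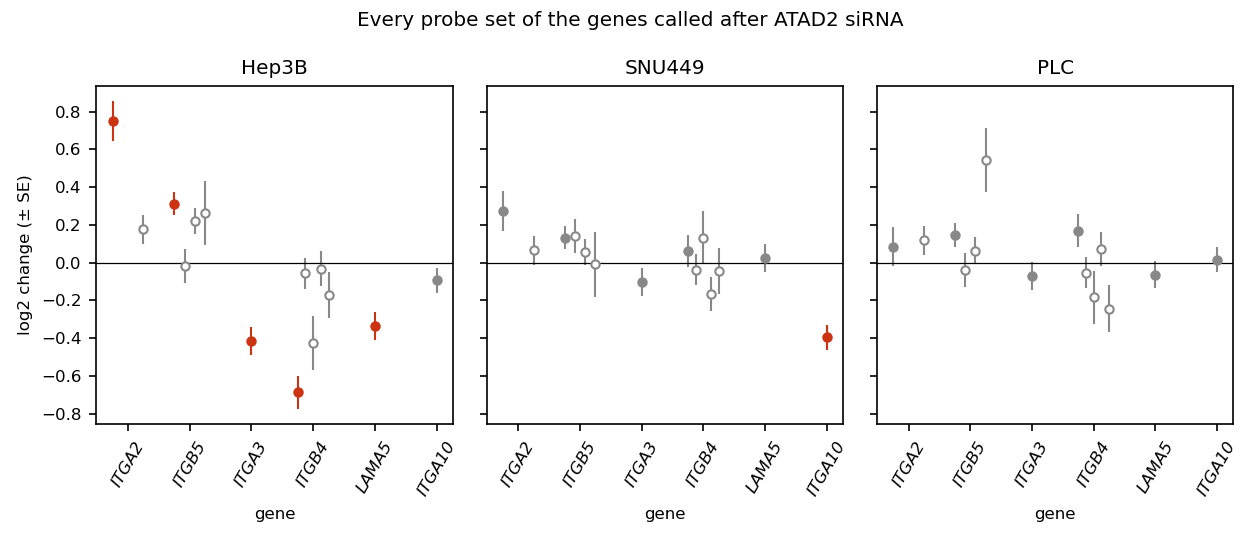
Log2 change with ATAD2 siRNA against control (vertical axis, ± SE) of every probe set annotated to the 6 called members alone, in each line. Filled points are the probe sets used, open points the others, and red marks a call over all probe sets. In Hep3B the 1 other probe set of ITGA2, the 4 of ITGB4 and the 3 of ITGB5 are not called.

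The control arrays show which chains each line carried before knockdown. A difference was called here at an adjusted p of 0.05 and a log2 difference of at least 1. SNU449 differed from Hep3B in 8 of 31 members, against 19.7% of all genes, with 1 higher and 7 lower, where 9.24% and 10.5% of all genes were. PLC differed from Hep3B in 10 of 31, against 18.4%, with 2 higher and 8 lower (9.58% and 8.83% of all genes). SNU449 differed from PLC in 4 of 31, against 19.2%, with 2 higher and 2 lower (8.63% and 10.5%). The median difference of the members was -0.34, -0.12 and -0.22 in these comparisons, against -0.02, -0.02 and 0.01 over all genes. The comparisons share control arrays. The counts rest on 1 probe set per gene, and some uncalled members had another probe set called. For ITGB3 and ITGB5, 1 other was called lower than Hep3B in both lines. Their lowest differences were -1.16 and -1.96 in SNU449 and -1.31 and -1.10 in PLC. In PLC 1 other of ITGA2 (-1.50) and 1 of ITGB1 were also called lower than Hep3B. Between SNU449 and PLC 1 other of ITGA2 was called higher (1.67) and 2 of ITGB1 lower. Hepatocyte and mesenchymal marker levels differed between the same arrays, as given above, and their part in these differences was not tested.

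Among the laminin receptors, ITGA3 and ITGB4 were high in Hep3B. ITGA3 was at 8.81, 8.79 and 8.91 in the Hep3B control arrays, at 5.28, 5.30 and 5.25 in SNU449, with PLC at 5.09, 5.01 and 4.95. It differed from Hep3B by -3.56 ± 0.07 in SNU449, 11.8-fold (adjusted p = 1.98e-17), and by -3.82 ± 0.07 in PLC, 14.1-fold (adjusted p = 9.58e-18, limma). These folds rest on 1 probe set, whose signal lay at the 38.9 percentile of all genes in SNU449 and 34.2 in PLC control arrays. ITGB4 differed by -2.82 ± 0.08 in SNU449 and -3.06 ± 0.08 in PLC from Hep3B (adjusted p = 6.87e-15 and 2.64e-15, limma). Its other probe sets gave smaller differences, of -1.48 to -0.18 in SNU449 and -1.03 to 0.12 in PLC. ITGA6 went with neither, since it was at 10.19, 10.25 and 10.36 in Hep3B and 9.9985, 9.77 and 9.85 in SNU449 but at 8.11, 8.05 and 8.08 in PLC. PLC lay -2.19 ± 0.09 from Hep3B, a 4.55-fold difference, and SNU449 lay 1.79 above PLC (adjusted p = 9.71e-13 and 1.47e-11, limma), and its second probe set differed the same way, by -1.71 and 1.13. With arrays centred on their medians those 2 differences of ITGA6 were -0.97 and 0.44, under the threshold of 1.

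Among the receptors for collagen, ITGA10 was at 7.58, 7.67 and 7.72 in Hep3B, 5.42, 5.41 and 5.44 in SNU449, with PLC at 5.54, 5.58 and 5.57. Hep3B stood apart, by -2.23 ± 0.06 for SNU449 and -2.09 ± 0.06 for PLC (adjusted p = 2.81e-15 and 8.09e-15, limma). ITGA1 was at 5.54, 5.62 and 5.61 in Hep3B, 5.57, 5.62 and 5.98 in SNU449, with PLC at 6.90, 6.84 and 6.85. PLC was the high line on this probe set, 1.27 ± 0.11 above Hep3B (adjusted p = 1.77e-08, limma). On the 2 other probe sets of ITGA1 PLC lay -0.15 and 1.33 from Hep3B. SNU449 lay 0.13 from Hep3B on the probe set used, but both others were called higher there, by up to 1.97. SNU449 differed from PLC by -1.14 on the probe set used, but by 0.65 and 1.49 on the 2 others. The order of the lines for ITGA1 thus depends on the probe set.

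Of the RGD receptors, ITGA5, the alpha chain of the main fibronectin receptor, was at 6.30, 6.42 and 6.38 in Hep3B, 6.40, 6.46 and 6.34 in SNU449, with PLC at 7.57, 7.54 and 7.41. Only the PLC arrays stood apart, 1.15 ± 0.07 above Hep3B and with SNU449 at -1.11 from PLC (adjusted p = 4.12e-10 and 6e-10, limma). With the values as deposited these were 0.77 and -0.56, under the threshold of 1. ITGAV was at 11.78 to 11.85 in Hep3B and between 11.03 and 11.17 in the other lines, a difference under 1. ITGB1 was at 13.16, 13.19 and 13.26 in Hep3B, 12.12, 12.05 and 12.02 in SNU449, with PLC at 12.72, 12.73 and 12.74. The 3 lines did not overlap, and SNU449 lay -1.14 ± 0.05 from Hep3B (adjusted p = 1.75e-12, limma). PLC lay -0.47 from Hep3B, but 0.84 above it with arrays centred on their medians.

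ITGA4 was also high in Hep3B. It was at 7.22, 7.21 and 7.18 in Hep3B, 3.14, 3.08 and 3.05 in SNU449, with PLC at 3.18, 3.82 and 3.70. The differences from Hep3B were -4.12 ± 0.14 for SNU449 and -3.64 ± 0.14 for PLC (adjusted p = 6.37e-14 and 4.08e-13, limma). All 3 other probe sets of ITGA4 were called in the same direction in both comparisons, and the mean of its probe sets differed by -2.57 and -2.54. In SNU449 and PLC the signal was dim, at the 6.3 and 10.7 percentile of all genes, so no fold is given. ITGAL, the alpha chain of the leukocyte adhesion receptor LFA-1, was at 4.30, 4.14 and 4.21 in Hep3B, 6.21, 6.30 and 6.30 in SNU449, with PLC at 4.82, 4.76 and 4.79. SNU449 stood 2.05 ± 0.06 above Hep3B and 1.48 ± 0.06 above PLC (adjusted p = 9.04e-15 and 1.05e-12, limma), and its second probe set gave 3.92 and 3.08. Its beta chain ITGB2 was at 5.42 to 5.86, 5.66 to 5.77 and 5.97 to 6.12 in Hep3B, SNU449 and PLC, which was not called. The defining leukocyte marker PTPRC had means of 3.66, 3.27 and 2.77 in the 3 control groups. Of 10 leukocyte markers 2 were called higher in SNU449 than in Hep3B, CORO1A by 1.12 and FCER1G by 1.07, and 1 was called higher in PLC than in Hep3B, LCP1 by 3.58; these 3 were named after their values were seen. Their part in the level of ITGAL was not tested. The mean over 10 leukocyte markers was 5.03 to 5.12 in the Hep3B, 5.28 to 5.35 in the SNU449 and 5.16 to 5.29 in the PLC control arrays, with 8, 6 and 8 of the 10 in the lower 50% of all genes.

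Of the laminin chains, LAMA5 was at 9.66, 9.73 and 9.64 in Hep3B, 8.05, 8.25 and 8.16 in SNU449, with PLC at 7.74, 7.81 and 7.57. It differed from Hep3B by -1.52 ± 0.07 in SNU449 and -1.97 ± 0.07 in PLC, 2.88-fold and 3.91-fold (adjusted p = 2.61e-12 and 9.17e-14, limma). With arrays centred on their medians the PLC difference was -0.80, under the threshold of 1. LAMB1, the beta chain of many laminins, was at 10.53, 10.55 and 10.51 in Hep3B, 9.32, 9.21 and 9.23 in SNU449, with PLC at 9.53, 9.49 and 9.46. It differed from Hep3B by -1.28 ± 0.05 and -1.04 ± 0.05 (adjusted p = 2.82e-13 and 6.1e-12, limma), but with arrays centred on their medians the PLC difference turned to 0.33. LAMA2, a chain of muscle and nerve laminins with a low signal in all groups, was at 4.84, 4.72 and 4.80 in Hep3B and 4.09, 3.56 and 3.35 in PLC, a difference of -1.12 ± 0.22 (adjusted p = 0.000231, limma). Its 3 other probe sets were not called.

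The levels between lines rest on the normalization, because the deposited medians were 5.36 to 5.42 in Hep3B, 5.55 to 5.62 in SNU449 and 4.14 to 4.21 in PLC. The median difference of all genes between PLC and Hep3B was -0.02 after quantile normalization, -0.62 as deposited and 0.63 with arrays centred on their medians, and between SNU449 and PLC 0.01, 0.76 and -0.70. Taken relative to that median, each called member kept its direction under these scalings, with LAMB1 in PLC at -1.01 and -0.30 from Hep3B. The share of higher calls over all genes between PLC and Hep3B was 52.0%, 17.4% and 89.8% under the 3 scalings, and between SNU449 and PLC 45.0%, 85.8% and 8.23%.

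**Figure D4:**
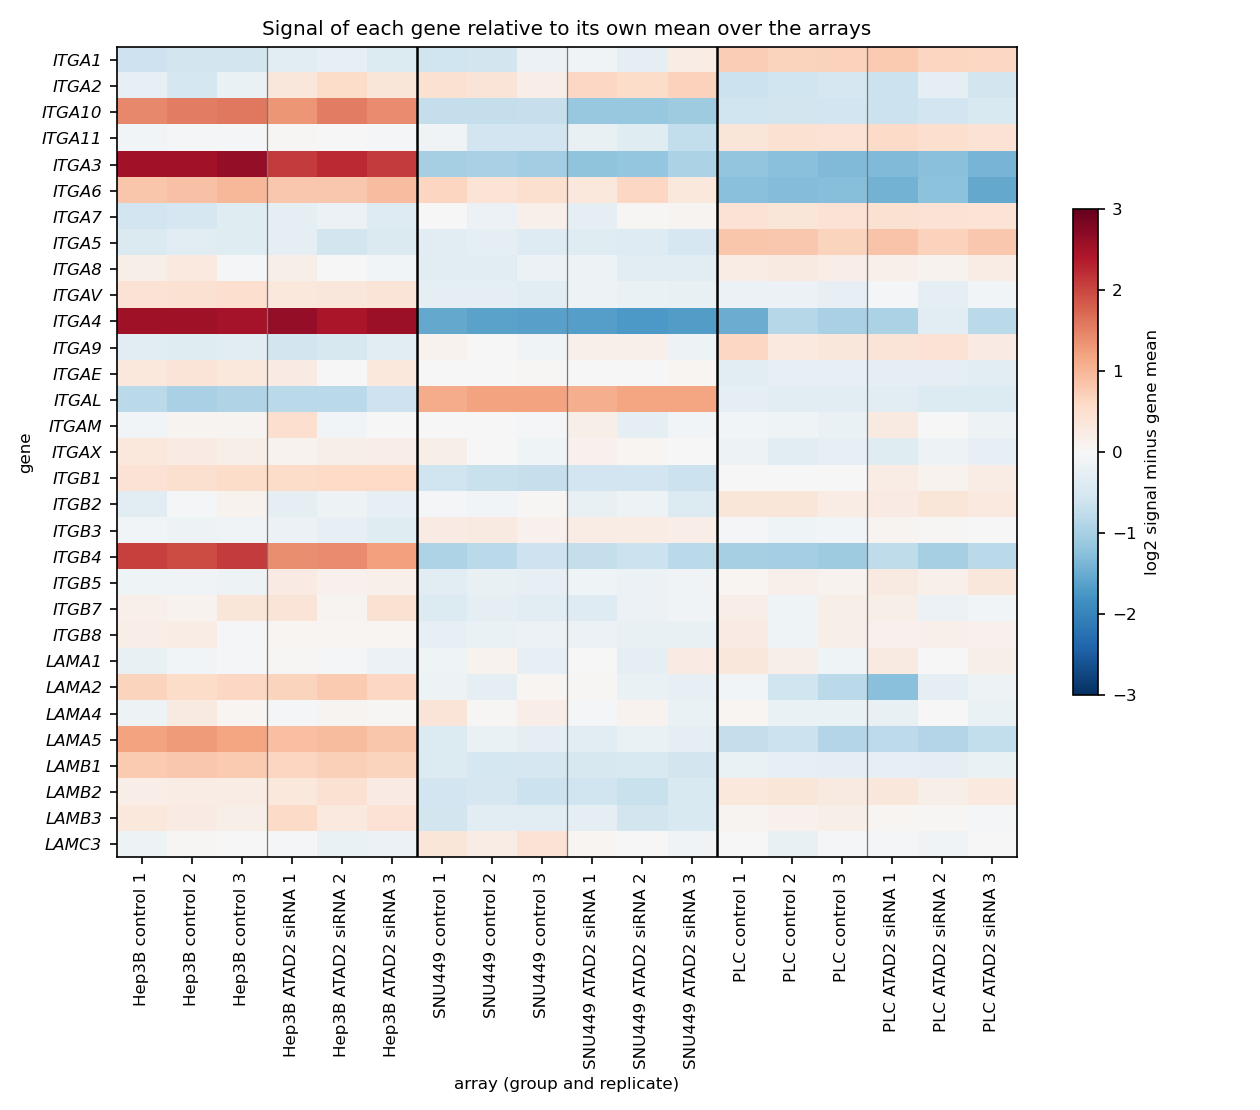
Log2 signal of each measured member minus its own mean over the 18 arrays (color, red above and blue below), one row per gene and one column per array grouped by line and siRNA. ITGA3, ITGA4, ITGB4 and ITGA10 stand out in all 6 Hep3B-labelled arrays, ITGAL in the SNU449-labelled arrays, and ITGA1 and ITGA5 in the PLC arrays.

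A further 13 members lay in the lower 50% of all genes in all 6 groups: ITGA7, ITGA8, ITGA9, ITGA11, ITGAM, ITGAX, ITGB3, ITGB7, ITGB8, LAMA1, LAMA2, LAMB3 and LAMC3. Their group means ran from 3.50 to 5.98. None of the 13 was called after knockdown in any line by limma, with 2, 1 and 1 at an unadjusted p under 0.05 in Hep3B, SNU449 and PLC. Among the 18 others, ITGAE, ITGAV, ITGB2, LAMA4 and LAMB2 were called in none of these comparisons. ITGAE was at 9.60 to 9.98 in Hep3B, 9.57 to 9.63 in SNU449 and 9.25 to 9.35 in PLC, and LAMB2 at 7.31 to 7.59, 6.45 to 6.67 and 7.30 to 7.49.

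Genes that work with these chains were taken from lists of partners. Of 26 measured genes of the cytoplasmic adhesion machinery 3 rose and 3 fell in Hep3B, where 8.68% of all genes rose and 7.74% fell (16.4% in all); the same shares stand beside the counts of the other lists in Hep3B. FERMT2, a kindlin that activates integrins, rose by 0.34 ± 0.05 (adjusted p = 0.000318), and PTK2, the focal adhesion kinase, by 0.25 ± 0.05 (adjusted p = 0.00218, limma). BCAR1, a scaffold that this kinase acts on, fell by 0.32 ± 0.08 (adjusted p = 0.00853), and the tensin TNS2 by 0.22 ± 0.06 (adjusted p = 0.021, limma). The median change of the list was 0.02. Of 10 membrane partners 2 rose and 1 fell in Hep3B. CAV1, the main protein of caveolae, was at 12.96, 12.95 and 12.97 in control and 11.99, 11.89 and 12.04 in knockdown arrays, and fell by 0.98 ± 0.08 (adjusted p = 2.36e-07, limma). CD63 and CD47 rose by 0.25 and 0.23.

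Of 15 other integrin ligands 2 rose and 3 fell in Hep3B. THBS1, a matrix glycoprotein bound by several integrins, was at 11.81, 11.88 and 11.91 in control and 10.82, 10.81 and 11.01 in knockdown arrays, and fell by 0.99 ± 0.08 (adjusted p = 1.98e-07, limma). In PLC it fell as well, by 0.47 ± 0.08 (adjusted p = 0.00461, limma). ICAM1, the ligand of ITGAL with ITGB2, rose by 0.58 ± 0.07 in Hep3B (adjusted p = 9.89e-06), and TGFB1, a cytokine that integrins with ITGAV release from its latent form, by 0.25 ± 0.06 (adjusted p = 0.0087, limma). NPNT, nephronectin, a ligand of ITGA8, fell by 0.52 ± 0.08 (adjusted p = 0.000239, limma). Of 13 basement membrane partners and other laminin receptors 1 rose and 3 fell. COL18A1, a collagen of basement membranes, was at 9.84, 9.86 and 9.82 in control and 9.12, 9.21 and 8.96 in knockdown arrays and fell by 0.74 ± 0.08 (adjusted p = 4.88e-06), the collagen COL4A2 fell by 0.31 ± 0.07 (adjusted p = 0.00347) and NTN4, a netrin that binds laminin, rose by 0.58 ± 0.17 (adjusted p = 0.0268, limma). PLEC, plectin, which links ITGB4 to keratin filaments, was the 1 of 4 hemidesmosome partners called, and fell by 0.39 ± 0.09 (adjusted p = 0.00431, limma).

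In SNU449 none of the partners was called by limma, against 0.258% of all genes, with an unadjusted p under 0.05 in 1 of 26 cytoplasmic genes, 1 of 10 membrane partners, 2 of 15 ligands, 2 of 13 basement membrane genes and 1 of 4 hemidesmosome genes. In PLC, where 4.57% of all genes were called, CD47 rose by 0.28 ± 0.07 (adjusted p = 0.0469), CDH1, E-cadherin and the ligand of ITGAE, fell by 0.57 ± 0.12 (adjusted p = 0.0175), and COL4A2 rose by 0.34 ± 0.07 at a level of 3.10 to 3.55 (adjusted p = 0.0117, limma). None of the 26 cytoplasmic genes and none of the 4 hemidesmosome genes was called there, with 4 and 1 at an unadjusted p under 0.05.

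Between control arrays the partners differed in many genes, and most of those called were higher in Hep3B. Of the 26 cytoplasmic genes 13 were lower and 1 higher in SNU449 than in Hep3B, and 12 lower and 1 higher in PLC. Of all genes 10.5% were lower and 9.24% higher in SNU449, and 8.83% lower and 9.58% higher in PLC. The focal adhesion adaptor TGFB1I1 was at 10.52 to 10.60 in Hep3B, 2.83 to 3.12 in SNU449 and 3.53 to 3.84 in PLC, and VCL, vinculin, at 12.13 to 12.18, 8.99 to 9.05 and 11.06 to 11.13. Of the 15 ligands 7 were lower and 2 higher in SNU449 than in Hep3B, and 6 lower and 2 higher in PLC. EDIL3, an RGD protein bound by ITGAV receptors, was at 12.74 to 12.79 in Hep3B, 3.30 to 3.40 in SNU449 and 2.59 to 3.03 in PLC. CDH1 went the other way, 6.45 ± 0.12 above Hep3B in SNU449 and 4.35 ± 0.12 above it in PLC (adjusted p = 1.12e-17 and 2.85e-15, limma). Of the 10 membrane partners 4 were lower and 1 higher in SNU449 than in Hep3B, and 3 lower and 2 higher in PLC. The tetraspanin CD9 differed from Hep3B by -4.78 and -5.86 and CAV1 by -4.66 and -5.29, while the tetraspanin TSPAN8 was 7.44 ± 0.10 higher in PLC (adjusted p = 1.39e-19, limma). Of the 13 basement membrane genes 5 were lower in SNU449 and 6 lower in PLC than in Hep3B, with none higher. The main collagen chains of that sheet, COL4A1 and COL4A2, were at 11.15 to 11.21 and 10.87 to 10.90 in Hep3B, 10.82 to 10.89 and 9.74 to 9.86 in SNU449, and 3.49 to 3.91 and 3.10 to 3.24 in PLC. The PLC arrays were thus the low ones for both chains.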

How the data were processed

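The authors deposited 1 table of log2 signals for 54675 probe sets on 18 Affymetrix arrays, and its values ran to 13.97. Per the submitters' processing notes limma was used; how the signals were background-corrected, scaled and centred is not given in the sources used here. The deposited medians differed between lines, so the log2 values were quantile-normalized over all arrays. Of the probe sets 41097 carried 1 gene, 1801 several and 11777 none. For 41043 the symbol was taken from RefSeq (GRCh38.p14) by gene identifier, whether or not it changed. The probe set with the highest mean stood for a gene, giving 19775 genes.

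A model with 6 groups of 3 arrays was fitted in limma 3.58.1 with R 4.3.3 (eBayes after lmFit; degrees of freedom were 12 residual and 4.01 prior), with Benjamini-Hochberg adjustment over all genes at 0.05, and for control arrays a log2 difference of at least 1. Probe sets were also fitted singly. P-values measure the spread between arrays labelled as biological replicates. The script was tested on simulated data. No 2 arrays held identical values.

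The members, lists and tests were chosen with earlier results of these data known. Values in every array were given for members called after knockdown or in the test between lines and for up to 6 members with the largest differences between control arrays; of each partner list, up to 4 called genes with the largest change were named. Other members, and partners named with control levels, are given by range and count. Alternatives were other normalizations, filters on dim genes, the mean of all probe sets, fits of only the lines compared, an intensity trend, array weights, a 3′ to 5′ covariate, a replicate block, other thresholds and each array left out.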

Additional observations from a re-analysis of the deposited data

Results flagged for a closer look

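The response to knockdown differed between lines by limma's F test for 3 members (9.18% of all genes), and between a pair of lines for 2 members (SNU449 against Hep3B, 6.14% of all genes) and 4 members (PLC against Hep3B, 9.7%). ITGA3, ITGB3 and LAMA5 passed for a pair of lines but not by the F test (adjusted p = 0.051, 0.104 and 0.0576, limma). The change of ITGB4 was 0.75 higher in SNU449 and 0.86 higher in PLC than in Hep3B, and its F test over the 3 lines gave an adjusted p of 0.000372. The change of ITGA2 in PLC differed from that in Hep3B by -0.66 (adjusted p = 0.0094, limma). The F test of ITGA2 over the 3 lines gave an adjusted p of 0.0196. ITGA10 passed the F test (adjusted p = 0.0155, limma), while its differences between pairs of lines, -0.30 for SNU449 against Hep3B and -0.41 for SNU449 against PLC, did not pass (adjusted p = 0.0538 and 0.0636, limma). The change of ITGA3 was 0.34 higher in PLC than in Hep3B. The change of ITGB3 was 0.27 higher in PLC than in Hep3B on the probe set used, which moved by -0.14 in Hep3B, while another of its probe sets rose there by 0.33 (adjusted p = 0.049, limma over all probe sets). The change of LAMA5 was 0.36 higher in SNU449 than in Hep3B.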

How the results depend on the processing

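ITGA2, ITGA3, ITGB4 and ITGB5 kept their Hep3B calls in 31 of 32 settings. They lost them only where a log2 change of 1 was asked for. LAMA5 kept its call in 30 and ITGA10 in SNU449 in 26. These settings include each of the 18 arrays left out in turn. Leaving out an array of another line alters only the shared spread and not the difference, so these settings are a weak check. The counts of members below stand without the share of all genes called in the same setting. They therefore do not show a change particular to the members. Asking for a log2 change of 1 left 0 members in Hep3B and 0 in SNU449. Dropping that threshold for control arrays gave 25 (SNU449 against Hep3B), 21 (PLC against Hep3B) and 26 (SNU449 against PLC). In the last comparison 14 members were called with the values as deposited, 14 with normalization within lines and 10 with arrays centred on their medians, against 4, and between PLC and Hep3B 15 with the values as deposited. In SNU449 knockdown 2 were called without the dimmest 30% of genes and 2 with array weights (LAMC3 added), and 0 at an adjusted p of 0.01. In PLC 1 was called without the dimmest 50% (ITGB1), 1 with an intensity trend and robust prior (ITGB1), 1 with the 3′ to 5′ covariate (ITGA4) and 1 without PLC knockdown replicates 1 and 3 (ITGA4), the last chosen after seeing the data. The F test between lines called 6 without the dimmest 30%, 5 without the dimmest 50%, 6 with array weights, 1 at an adjusted p of 0.01 and 5 without those PLC replicates. With each array left out in turn the counts were 5 to 6 in Hep3B, 0 to 1 in SNU449, 0 to 2 in PLC and 2 to 7 by the F test; between control arrays they were 8 to 8, 9 to 10 and 4 to 4. ITGA1 between SNU449 and PLC turned to 0.33 with the mean of all its probe sets. The filters left fewer genes to test, and the cause of these shifts was not tested.

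Same-numbered control and knockdown arrays shared little deviation from their group means (correlations -0.12 to 0.09, and 0.06 to 0.09 in PLC). Such values cannot show whether the replicates were run in pairs. With the replicate block 6 members were called in Hep3B, 0 in SNU449, 1 in PLC (ITGA4) and 3 by the F test, where ITGA2 was lost (adjusted p = 0.071, limma) and ITGA4 added. Fits of only the lines compared, and the log2 threshold, gave no value for the F test and were not run for it. Dim members have less signal over background, which limits what their changes show.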
